A study of Mus musculus with 12 samples.

Results

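The mRNA levels of 8 chemokine and homing receptors (Ccr4, Ccr6, Ccr7, Ccr8, Cxcr3, Cxcr4, Cxcr6, and Gpr15) were described in TCR-activated murine CD4+ T cells without polarizing cytokines (Th0), in polarizing Th17 cells, and in polarizing iTreg cells. The genes were taken by symbol, and all 8 were found among the 11247 genes that the Th17 versus Th0 and iTreg versus Th0 tables list together. The RNA came from 12 libraries, 4 for each condition. Naïve CD4+CD62L+ T cells from spleens of C57BL/6 mice, 8 to 10 weeks old, received plate-bound anti-CD3 and anti-CD28, each at 1 μg/mL, in all 3 conditions, and were cultured for 3 d. Th17 cultures also received IL6 at 30 ng/ml, TGFβ1 at 5 ng/ml, and neutralizing antibodies to IL4 and IFNγ at 10 μg/mL. For iTreg cultures the labels give IL2 at 10 ng/ml and TGFβ1 at 10 ng/ml, while the methods of the study name another TGFβ1 concentration. Th0 cells received neither cytokine nor neutralizing antibody, so the 3 conditions differ in several agents at once and the part of each agent cannot be told apart. RNA was isolated from cultured cells with no mention of a sort, and a change in the share of cells that carry a receptor cannot be told apart from a change in the amount of mRNA per cell.

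Chemokine receptors are G protein-coupled receptors that steer T cells along gradients of chemokines, small secreted proteins made by lymphoid tissue, epithelium, and inflamed sites. C-C motif chemokine receptor 7 (CCR7) keeps T cells recirculating through lymph nodes, while CCR4, CCR6, CCR8, C-X-C motif chemokine receptor 3 (CXCR3), and CXCR6 draw activated T cells into skin, gut, and inflamed tissue. CXCR4 binds CXCL12 and is used by many leukocytes, and G protein-coupled receptor 15 (GPR15) guides T cells to the large intestine. CCR6 is widely used as a marker of Th17 cells, CXCR3 as a marker of Th1 cells, and CCR4 and CCR8 as receptors of Th2 and Treg cells.

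In an unpaired test, Gpr15, Cxcr6, Cxcr4, Cxcr3, and Ccr8 were up-regulated in Th17 cells compared to Th0 cells. This makes 5 of the 8 receptors, and none was down-regulated past the threshold. A paired alternative, given below, called more receptors in both comparisons. In iTreg cells, Ccr8, Ccr6, Cxcr6, and Gpr15 were up-regulated in the unpaired test, which makes 4 of 8. At an unadjusted p under 0.05 in limma, 6 receptors were higher and 1 (Ccr4) lower in Th17 cells, and 6 were higher and 0 lower in iTreg cells, where 16.7% of all tested genes were higher and 15.6% lower in Th17 cells, and 15.3% higher and 14.8% lower in iTreg cells, at that p. With the FDR of 0.05, limma-voom on whole reads called 5 and 4 higher and 0 lower. Of all genes tested with limma, 10.6% were up-regulated and 8.69% down-regulated in Th17 cells, and 8.36% were up-regulated and 8.21% down-regulated in iTreg cells. On the log2(FPKM + 1) scale, the difference was largest for Gpr15 in Th17 cells and for Ccr8 in iTreg cells. With a pseudocount of 0.1 or limma-voom on whole reads, Ccr6 exceeded Ccr8 in iTreg cells (4.74 against 4.27, and 4.89 against 4.30). Gpr15 went from 0.119 ± 0.188 (SD, n = 4) to 12.9 ± 5.15 FPKM in Th17 cells, and Ccr8 from 16.9 ± 8.92 to 310.7 ± 95.8 FPKM in iTreg cells. Ccr7, the most abundant receptor of the 8 in Th0 cells, passed the test in neither comparison.

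FPKM counts sequenced fragments after correction for the length of the transcript and the size of the library. Up-regulation and down-regulation were called with limma on log2(FPKM + 1) over all tested genes at a Benjamini-Hochberg adjusted p (FDR) of 0.05. Genes were tested where 4 or more of a table's 8 libraries exceeded 1 FPKM, and all 8 receptors passed this filter in both tables. Gpr15 exceeded 1 FPKM in 0 Th0 libraries, and Cxcr3 and Ccr6 in 1 each. Gpr15 thus passed only, and Cxcr3 and Ccr6 mainly, through the polarized libraries, so that a gene like Gpr15 had to differ to be tested and its call adds little to the count. Column headings share the beginnings M22, M29, M42, and M43 across the conditions, and the methods of the study name a pair-wise design. With libraries that share a beginning treated as a replicate block, 7 receptors were called in Th17 cells (6 up, 1 down) and 7 in iTreg cells (7 up), where 37.8% and 40.9% of all tested genes were called. The headings do not say what these beginnings mark.

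The recovered whole reads summed to between 5130721 and 7480085 per library, and depth differed at most 1.44 times within a table. Cd3e lay at 121 to 311.5 FPKM in all libraries. Cd4 fell in Th17 cells, to a mean of 68.1 from 207.6 FPKM (adjusted p = 0.0377, limma), and was at 157.8 against 205.3 FPKM in iTreg cells (adjusted p = 0.683, limma). The M42 libraries were the lowest of their group in both genes in all 3 conditions. Of the markers of other cells, none of the NK cell or erythroid lists was listed, and 1 of 5 B cell markers was listed, with at most 3.84 FPKM. Of 8 CD4 T cell markers, Trbc1 and Trbc2 were not listed either, so a gene that is not listed need not be absent from the cells. The list of myeloid markers summed to 3.34 to 5.03 FPKM in Th0 and 5.58 to 16.5 FPKM in Th17 libraries, with 2 of 6 markers listed and Lyz2 and Csf1r not listed. In the table of iTreg cells, 1 of 6 was listed, with sums of 3.19 to 4.85 FPKM in Th0 and 2.61 to 7.19 FPKM in iTreg libraries. For dendritic cells, 2 of 5 markers were listed in both tables, and they summed to 3.12 to 8.33 FPKM in Th0, 0.931 to 2.81 FPKM in Th17, and 0.681 to 1.91 FPKM in iTreg libraries. CD8 T cell markers (1 of 3 listed) stayed at or below 6.60 FPKM. The part of these cells in the receptor values was not tested. Il17f, which encodes a cytokine of Th17 cells, lay at 281.4 to 788.2 FPKM in Th17 libraries against 0.0909 to 0.184 FPKM in Th0 libraries, and Foxp3, which encodes the master regulator of Treg cells, at 62.0 to 91.7 FPKM in iTreg libraries against 2.01 to 7.15 FPKM in Th0 libraries. The Th17 library M43 carried 42.5 FPKM of Foxp3, against 0.499 to 4.50 FPKM in the other Th17 libraries.

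The M42 libraries were the lowest of their group for Ccr4, Ccr7, Ccr8, and Cxcr4 in all 3 conditions, and for Cxcr3 in Th0 cells. Among all tested genes, the M42 library was the lowest of its group in 28.7% of genes for Th0 and 31.1% for Th17 cells in one table, and in 28.6% for Th0 and 26.1% for iTreg cells in the other. Without both M42 libraries 5 receptors were called in Th17 cells and 4 in iTreg cells. The 5 in Th17 cells then included Ccr4 and no longer Cxcr3.

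**Figure D1:**
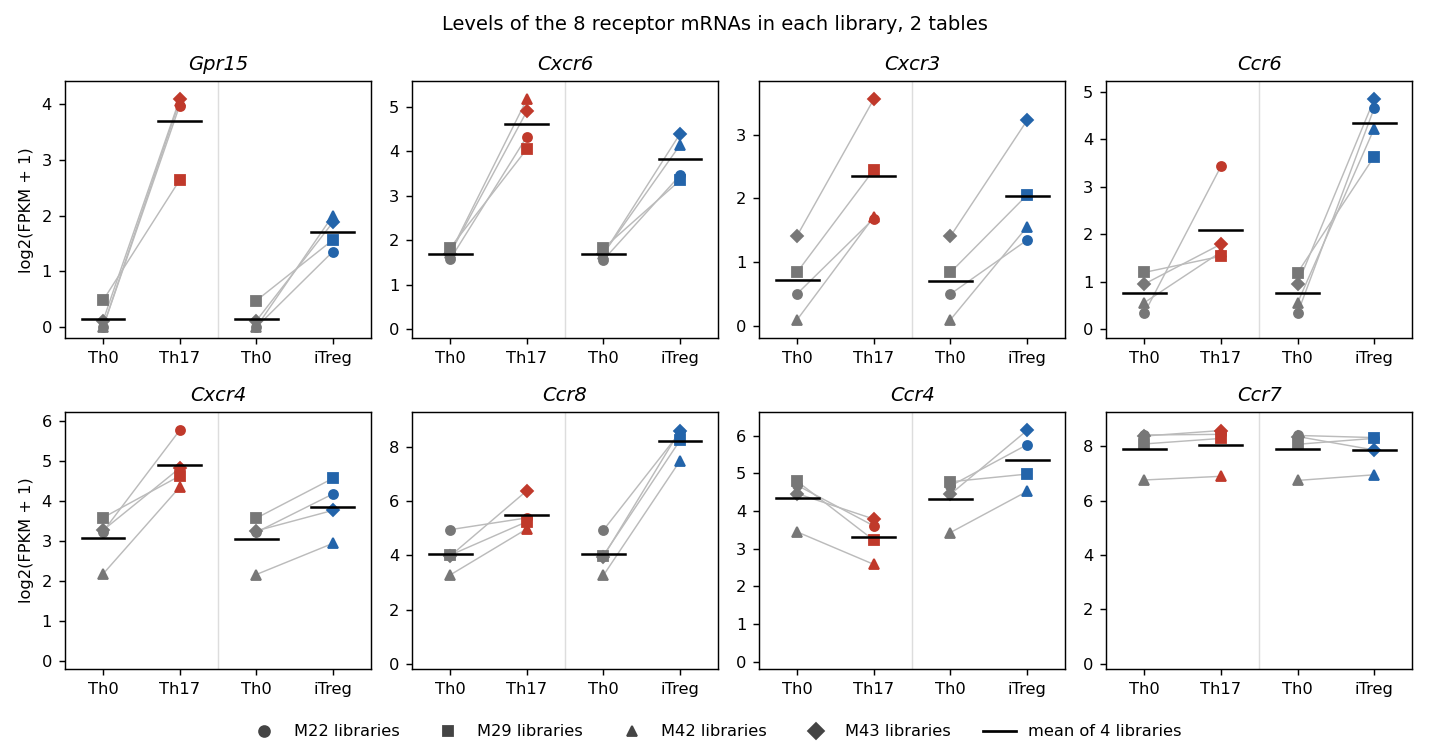
Level of each receptor mRNA in every library, as log2(FPKM + 1), with Th0 and Th17 libraries of one table on the left and Th0 and iTreg libraries of the other on the right of each panel. Symbols stand for the beginning of the column heading, grey lines join libraries that share it, and bars are means of 4 libraries. Gpr15 is highest in Th17 cells, Ccr8 and Ccr6 are highest in iTreg cells, and the M42 libraries (triangles) are lowest for Ccr7 in every group.

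The stretches of DNA just before the transcription starts of 3 receptors that were up-regulated in iTreg cells are given here. These genes lie on different chromosomes or at distant positions, and shared control of them was not tested. For Ccr6 the first of 2 windows is printed. Sequences come from RefSeq (GRCm38.p6), 5′ to 3′ on the strand of the gene, up to 250 bases before the start and without bases that the GENCODE annotation places in an exon. Capitals mark matches, on either strand, to TTCNNNGAA (a STAT motif) or AGGTCA (the motif bound by monomeric ROR receptors). A window of Gpr15 is not printed because 198 of its 250 bases lie in an annotated exon.
Ccr6, chr17:8235793-8236042, plus strand: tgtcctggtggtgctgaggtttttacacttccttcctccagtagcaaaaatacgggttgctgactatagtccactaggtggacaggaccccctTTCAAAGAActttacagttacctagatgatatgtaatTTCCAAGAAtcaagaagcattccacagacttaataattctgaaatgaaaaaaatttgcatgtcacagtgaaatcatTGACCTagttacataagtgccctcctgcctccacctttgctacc
Ccr8, chr9:120091883-120092113, plus strand: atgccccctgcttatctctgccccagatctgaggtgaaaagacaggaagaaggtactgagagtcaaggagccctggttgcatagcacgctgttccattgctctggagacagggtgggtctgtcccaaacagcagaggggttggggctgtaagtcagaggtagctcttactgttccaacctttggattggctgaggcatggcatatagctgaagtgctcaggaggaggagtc
Cxcr6, chr9:123806227-123806474, plus strand: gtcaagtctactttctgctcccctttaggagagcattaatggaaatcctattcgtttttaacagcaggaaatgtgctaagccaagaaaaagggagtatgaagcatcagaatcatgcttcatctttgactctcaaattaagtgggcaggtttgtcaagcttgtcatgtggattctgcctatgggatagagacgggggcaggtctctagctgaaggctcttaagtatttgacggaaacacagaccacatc

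RefSeq held 8 windows for 7 of the receptors in the same table, with 2 for Ccr6, and none for Ccr7. Of these, the first Ccr6 window held 2 STAT motifs, starting 157 and 120 bases before the start, and 1 ROR motif, starting 44 bases before it. The AP-1 motif TGANTCA was found in the windows of Gpr15 and Ccr4, starting 199 and 143 bases before the start. All but the first base of the Gpr15 match lies in an annotated exon. The forkhead motif TGTTTAC was found in none of the 8. The second Ccr6 window and the windows of Ccr8, Cxcr3, Cxcr4, and Cxcr6 held none of the 4 motifs. Of the 32851 windows of this length over all genes, 7.02% held the STAT motif, 14.02% the ROR motif, 6.75% the AP-1 motif, and 3.17% the forkhead motif. A match in these letters is a description and does not show that a factor binds there.

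By GENCODE coordinates on GRCm38 (mm10), the receptors lie on 6 chromosomes. Ccr4 (chr9:114490316-114504916), Ccr8 (chr9:120092114-120094906), and Cxcr6 (chr9:123806475-123811760) share chromosome 9, with 5587198 bases between the first pair and 3711569 bases between the second. Ccr6 lies at chr17:8236043-8257141, Ccr7 at chr11:99144196-99155077, Cxcr3 at chrX:101731535-101734269, Cxcr4 at chr1:128588199-128592293, and Gpr15 at chr16:58717433-58719070. Exons of 7 of the 8 receptors share no base with exons of another gene. In Gpr15, 204 of 1638 exonic bases also lie in exons of Cpox, a gene of heme synthesis on the opposite strand, and strand was not used in counting.

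For each receptor, values of single Th0 libraries are those of the Th17 table, and those in the table of iTreg cells are about 1% lower. Gpr15 was nearly absent from Th0 cells. In the order M22, M29, M42, and M43, Th0 libraries carried 0, 0.395, 0, and 0.0830 FPKM, which are 5 reads in all, and Th17 libraries 14.7, 5.23, 15.6, and 16.02 FPKM, which are 583 reads. Every Th17 library lay above every Th0 library, and M29 was the lowest of the Th17 libraries. The difference was 3.54 ± 0.32 (SE) on the log2(FPKM + 1) scale (adjusted p = 0.00013, limma). In iTreg cells Gpr15 reached 1.56, 1.96, 3.01, and 2.69 FPKM, a difference of 1.55 ± 0.17 from Th0 cells (adjusted p = 0.000518, limma). The lowest iTreg library was above the highest Th0 library. The pseudocount holds these differences down, and on whole reads limma-voom gave 6.80 ± 1.01 in Th17 and 4.44 ± 0.64 in iTreg cells. Cpox itself rose from a mean of 9.29 to 60.7 FPKM in Th17 cells (adjusted p = 7.04e-05, limma) and from 9.19 to 18.1 FPKM in iTreg cells (adjusted p = 0.00136, limma), and its part in the Gpr15 values was not tested.

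Cxcr6, the receptor of CXCL16 on effector and tissue-resident T cells, had the steadiest level of the 8 in Th0 cells, at 1.97, 2.56, 2.28, and 2.26 FPKM in the order M22, M29, M42, and M43. Th17 libraries carried 19.1, 15.6, 34.9, and 28.8 FPKM in the same order, and iTreg libraries 10.0, 9.20, 16.6, and 20.01 FPKM. No polarized library overlapped with Th0 cells, and M42 and M43 were above M22 and M29 in both conditions. The difference from Th0 cells was 2.91 ± 0.23 in Th17 cells (adjusted p = 7.16e-05, limma), where the mean was 10.8 times that of Th0 cells. It was 2.14 ± 0.23 in iTreg cells (adjusted p = 0.000439, limma), where the mean was 6.22 times that of Th0 cells.

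Ccr6, whose ligand is CCL20, was at 0.257, 1.29, 0.468, and 0.927 FPKM in Th0 libraries M22, M29, M42, and M43, which are 52 reads in all. It reached 24.3, 11.4, 17.8, and 27.8 FPKM in iTreg libraries in the same order (1636 reads), and 9.78, 1.90, 2.08, and 2.46 FPKM in Th17 libraries (288 reads). All iTreg libraries stood far above Th0 cells, whereas in Th17 cells M22 stood apart from the other libraries, which lay above the highest Th0 library. In iTreg cells the difference was 3.59 ± 0.28 (adjusted p = 0.000101, limma). In Th17 cells it was 1.34 ± 0.41 and missed the threshold (adjusted p = 0.0517, limma), while the replicate block gave an adjusted p of 0.0435. A pseudocount of 0.1 gave 2.14 with an adjusted p of 0.0383, and limma-voom on whole reads 2.23 with an adjusted p of 0.0628. Without the Th17 library M22 the difference fell to 0.89 with an adjusted p of 0.0298, and without the Th17 library M42 it was 1.496 with an adjusted p of 0.0459.

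Ccr8, the receptor of CCL1, stood highest in iTreg cells. Th0 libraries M22, M29, M42, and M43 carried 29.9, 15.1, 8.70, and 14.7 FPKM, and iTreg libraries 372.1, 302.3, 178.6, and 389.6 FPKM. The lowest iTreg library was thus several-fold above the highest Th0 library. The mean was 18.4 times that of Th0 cells, and the difference was 4.18 ± 0.36 (adjusted p = 0.000163, limma). Th17 libraries carried 40.8, 36.9, 30.5, and 82.6 FPKM. These were above all Th0 libraries by a small margin, since the lowest Th17 library had 30.5 and the highest Th0 library 29.9 FPKM. The difference in Th17 cells was 1.45 ± 0.39 (adjusted p = 0.032, limma). It missed the threshold when any of 6 libraries was left out (Th0 M29, M42, or M43, Th17 M22, M29, or M43), with adjusted p of 0.0558 to 0.0797. The Th17 library M43, highest in Ccr8, was also the Th17 library with 42.5 FPKM of Foxp3, and without it the difference was 1.15 (adjusted p = 0.0648).

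Ccr4, which binds CCL17 and CCL22, moved in opposite directions. Th0 libraries M22, M29, M42, and M43 carried 24.7, 26.6, 9.89, and 21.1 FPKM, Th17 libraries 11.2, 8.34, 4.99, and 12.8 FPKM, and iTreg libraries 53.2, 30.6, 21.97, and 69.6 FPKM. The Th0 library M42 lay among the Th17 libraries, and the iTreg library M42 among the Th0 libraries, so the groups overlapped in both comparisons. The difference was -1.05 ± 0.35 in Th17 cells (adjusted p = 0.0671, limma) and 1.02 ± 0.40 in iTreg cells (adjusted p = 0.128, limma). Within heading beginnings, Ccr4 was lower in Th17 cells in 4 of 4, by 0.68 to 1.56 on the log2 scale, and higher in iTreg cells in 4 of 4, by 0.20 to 1.69. With the replicate block Ccr4 passed the threshold in both, with adjusted p of 0.00249 and 0.0101. Without the Th0 library M42 the difference in Th17 cells was -1.35 (adjusted p = 0.0147). It also passed the threshold with libraries centred on their median (adjusted p = 0.0465) and with quantile normalization (adjusted p = 0.048). The difference between Th17 and iTreg cells was not tested, since the tables were scaled separately.

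Cxcr3, the receptor of CXCL9, CXCL10, and CXCL11, was low throughout. Th0 libraries M22, M29, M42, and M43 carried 0.415, 0.792, 0.0672, and 1.67 FPKM, from 1 to 25 reads each. Th17 libraries carried 2.21, 4.45, 2.27, and 10.8 FPKM and iTreg libraries 1.54, 3.15, 1.93, and 8.34 FPKM, with M43 the highest in each group. The difference was 1.64 ± 0.44 in Th17 cells (adjusted p = 0.0312, limma), where the groups did not overlap. The call was lost without the Th0 library M22, M29, or M42 or without the Th17 library M29, with adjusted p of 0.0525 to 0.0804. In iTreg cells the difference was 1.34 ± 0.43 (adjusted p = 0.066, limma), the iTreg library M22 lay below the Th0 library M43, and the replicate block gave an adjusted p of 0.000816. On whole reads limma-voom gave 3.01 in Th17 (adjusted p = 0.0499) and 2.57 in iTreg cells (adjusted p = 0.0903). Within heading beginnings Cxcr3 was higher in 4 of 4 in both conditions, by 1.18 to 2.14 in Th17 and 0.85 to 1.82 in iTreg cells. Tbx21, which encodes the Th1 regulator T-bet, stayed at or below 2.52 FPKM in all libraries.

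Cxcr4 was at 8.39, 10.95, 3.52, and 8.62 FPKM in Th0 libraries M22, M29, M42, and M43. Th17 libraries carried 53.1, 23.6, 19.2, and 27.1 FPKM, all above Th0 cells, and iTreg libraries 17.0, 22.6, 6.67, and 12.6 FPKM, of which M42 lay below 3 of the Th0 libraries. The difference was 1.82 ± 0.37 in Th17 cells (adjusted p = 0.00902, limma). In iTreg cells it was 0.81 ± 0.39 (adjusted p = 0.206, limma), and the replicate block, with a standard error of 0.096, gave an adjusted p of 0.000996. The ratio of iTreg to Th0 libraries was between 1.48 and 2.08 in the 4 heading beginnings.

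Ccr7, which binds CCL19 and CCL21 in lymph nodes, was high in all conditions. Th0 libraries M22, M29, M42, and M43 carried 342.4, 272.2, 107.9, and 333.1 FPKM, Th17 libraries 347.8, 313.4, 118.6, and 383.4 FPKM, and iTreg libraries 320.2, 314, 123.3, and 233 FPKM. Between 1971 and 6904 reads lay behind each value. The M42 libraries were the lowest in each group, and the groups overlapped throughout. The difference was 0.14 (95% interval -0.91 to 1.19, adjusted p = 0.866, limma) in Th17 cells and -0.04 (95% interval -1.01 to 0.93, adjusted p = 0.97, limma) in iTreg cells. With the replicate block the intervals narrowed to -0.05 to 0.33 and -0.34 to 0.27, with adjusted p of 0.205 and 0.838. These intervals do not show that the level was the same, but bound a difference within heading beginnings.

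**Figure D2:**
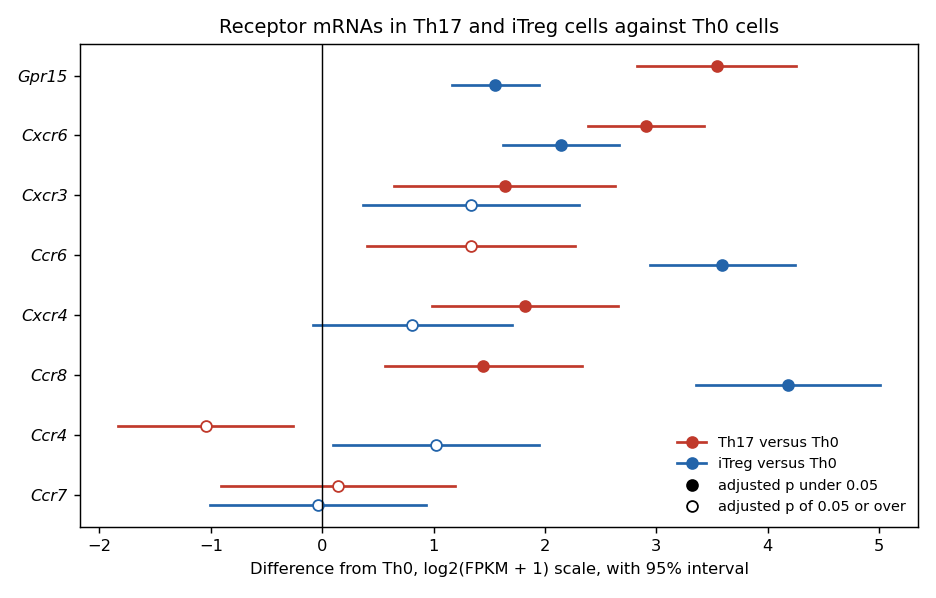
Difference of each receptor mRNA from Th0 cells on the log2(FPKM + 1) scale, for Th17 (red) and iTreg cells (blue), with lines for the 95% interval of limma over 4 libraries against 4. Filled points passed an adjusted p of 0.05. Gpr15 and Cxcr6 lie farthest to the right in Th17 cells, at 3.54 and 2.91, and Ccr8 and Ccr6 in iTreg cells, at 4.18 and 3.59.

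In Th17 cells the libraries of 6 receptors lay wholly above Th0 cells (Ccr6, Ccr8, Cxcr3, Cxcr4, Cxcr6, and Gpr15), which was so, in either direction, for 23.8% of all tested genes. In iTreg cells this held for 4 receptors (Ccr6, Ccr8, Cxcr6, and Gpr15), against 22.8% of all tested genes. For Gpr15, with 0 Th0 libraries over 1 FPKM, the filter fixed this in both comparisons. Ccr6 and Cxcr3, with 1 such Th0 library each, passed the filter mainly through polarized libraries, so these receptors add little to the counts. Groups that do not overlap have p = 0.0286 by construction in the two-sided exact permutation test over 70 arrangements, the smallest p that 4 libraries against 4 allow, so it adds nothing for these. The exact permutation p of Ccr4 was 0.0857 in both comparisons, that of Cxcr3 in iTreg cells 0.0571, and that of Cxcr4 in iTreg cells 0.1714. The median difference of the 8 receptors was 1.54 in Th17 and 1.45 in iTreg cells, where the median over all tested genes was -0.0007 and 0.0114. Gpr15, Ccr6, and Cxcr3 entered these medians with the same limit from the filter. The receptors were also chosen with earlier results of these data known, so the medians are a description.

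**Figure D3:**
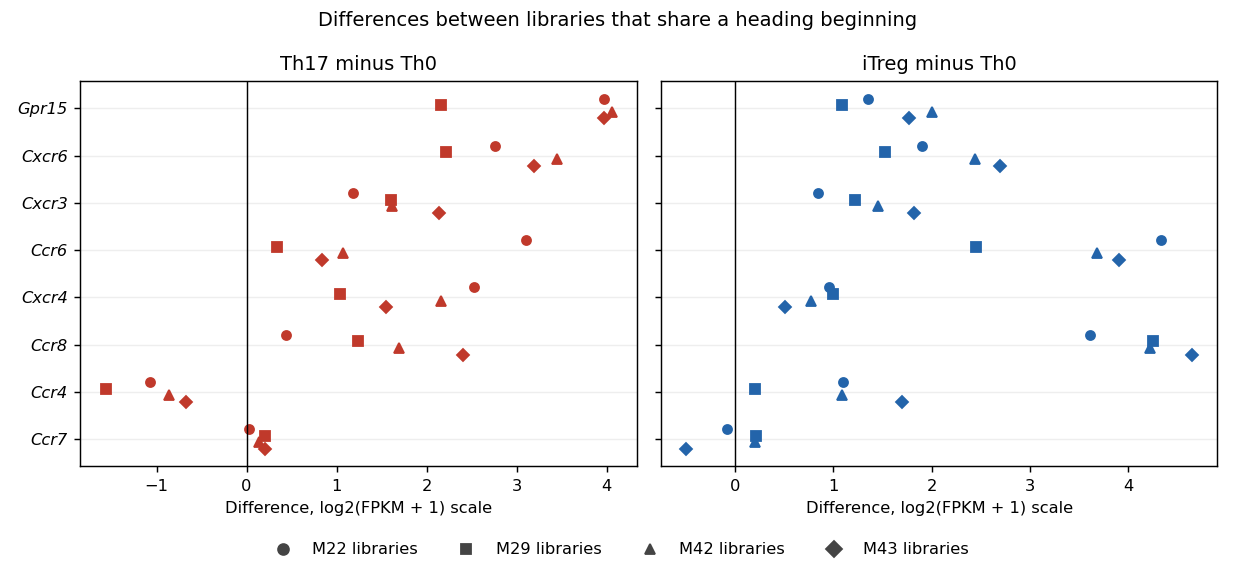
Difference of each receptor mRNA between libraries that share a heading beginning, on the log2(FPKM + 1) scale, for Th17 minus Th0 (left) and iTreg minus Th0 (right). Each symbol is 1 pair of libraries. Ccr4 lies left of 0 in all 4 Th17 pairs and right of 0 in all 4 iTreg pairs, and the Ccr6 difference of M22 in Th17 cells, at 3.10, stands apart from 0.34 to 1.07 in the other pairs.

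FPKM is scaled to length, which allows the receptors to be ordered by level within a condition. In Th0 cells the order in the Th17 table was Ccr7 (263.9 FPKM), Ccr4 (20.6), Ccr8 (17.1), Cxcr4 (7.87), Cxcr6 (2.27), Cxcr3 (0.735), Ccr6 (0.734), and Gpr15 (0.119). The ranges of libraries did not overlap between Ccr7 and Ccr4, between Cxcr4 and Cxcr6, or between Cxcr6 and Cxcr3, and they overlapped between the other neighbours. In Th17 cells the order was Ccr7 (290.8 FPKM), Ccr8 (47.7), Cxcr4 (30.8), Cxcr6 (24.6), Gpr15 (12.9), Ccr4 (9.32), Cxcr3 (4.93), and Ccr6 (4.05). Only Ccr7 was apart from its neighbour there. In iTreg cells the order was Ccr8 (310.7 FPKM), Ccr7 (247.6), Ccr4 (43.8), Ccr6 (20.3), Cxcr4 (14.7), Cxcr6 (13.97), Cxcr3 (3.74), and Gpr15 (2.30). Ccr8 was above Ccr7 in 3 of 4 iTreg libraries, with overlapping ranges, and the ranges were apart only between Ccr7 and Ccr4 and between Cxcr6 and Cxcr3. Ccr6 thus stood last of 8 in Th17 cells and at rank 4 in iTreg cells, and Gpr15 at rank 5 in Th17 cells and last in iTreg cells.

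The genes whose pattern was most like that of a receptor were looked up among 10079 genes tested in both tables, by the smaller of the Pearson correlations of log2(FPKM + 1) over the 8 libraries of each table. The tables share the Th0 libraries, and libraries of a condition share their culture conditions, so these values are a description. For Gpr15 the nearest gene was Cxcr6 (r = 0.987 in the Th17 table and 0.982 in the iTreg table), followed by Dyrk4 (0.978 and 0.979) and Stat5b (0.985 and 0.976). For Cxcr6 they were Peli2 (0.993 and 0.988), Il17f (0.986 and 0.992), and Apol9b (0.986 and 0.989). For Ccr8 they were Diap2 (0.937 and 0.973), Plp2 (0.934 and 0.978), and Dst (0.931 and 0.993). For Ccr6 they were Chmp5 (0.946 and 0.929), Wfs1 (0.925 and 0.934), and Map1lc3a (0.921 and 0.992). For Ccr7, whose values follow the heading beginnings, they were Sun2 (0.971 and 0.964), Tmed4 (0.959 and 0.96), and Ifnar2 (0.976 and 0.957), which encodes a chain of the type I interferon receptor. Among the nearest genes of Cxcr4 were Gak (0.938 and 0.941) and Tor2a (0.940 and 0.933). Those of Cxcr3 were Selt (0.961 and 0.930), Pdzd8 (0.958 and 0.911), and Atg2b (0.906 and 0.909), and those of Ccr4 were Wls (0.901 and 0.967), 4930404N11Rik (0.914 and 0.899), and Edem1 (0.916 and 0.876).

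Other chemokine receptors were compared for context. Of 16 in the list, 6 were in the Th17 table and 3 in the iTreg table, and 2 passed the filter in each. Cxcr5 exceeded 1 FPKM in 1 Th0 library and Cx3cr1 in 0, so both passed through the polarized libraries, and the direction of their differences follows nearly from the filter. Cxcr5, the CXCL13 receptor of follicular helper T cells, rose from 0.863 ± 0.374 to 33.9 ± 7.78 FPKM in Th17 cells (adjusted p = 4.66e-06, limma) and from 0.854 ± 0.372 to 5.19 ± 1.58 FPKM in iTreg cells (adjusted p = 0.000672, limma). Cx3cr1, the fractalkine receptor, rose from 0.250 ± 0.275 to 7.39 ± 3.03 FPKM in iTreg cells (adjusted p = 0.000313, limma) and did not pass the filter in the Th17 table, at a mean of 0.899 FPKM in Th17 cells. The difference of Cx3cr1 between Th17 and iTreg cells was not tested.

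Among chemokine ligands, 3 of 9 tested genes fell and none rose in Th17 cells (median difference -1.27), while 2 of 8 rose and 1 fell in iTreg cells (median difference 0.43). The called ligands make 33.3% and 37.5% of the list, where 19.3% and 16.6% of all tested genes were called. No ligand was higher in Th17 cells at an unadjusted p under 0.05 or with limma-voom on whole reads (0 of 9 each). Ccl1, the ligand of CCR8, fell from 8.70 ± 7.24 to 0.273 ± 0.277 FPKM in Th17 cells (adjusted p = 0.00235, limma). Th17 libraries held at most 0.660 FPKM of Ccl1, so it passed the filter only through Th0 libraries and its fall follows from the filter. In iTreg cells, where Ccr8 was highest, Ccl1 was at 14.4 ± 14.3 against 8.60 FPKM in Th0 cells (adjusted p = 0.653, limma). Ccl20, the ligand of CCR6, rose from 2.42 ± 1.86 to 28.3 ± 22.6 FPKM in iTreg cells (adjusted p = 0.01, limma), the condition in which Ccr6 was highest, and was at 3.89 ± 3.06 against 2.44 FPKM in Th17 cells (adjusted p = 0.591, limma). Ccl5 fell to 0.467 ± 0.432 FPKM in Th17 cells (adjusted p = 0.00304, limma) and to 0.984 ± 0.554 FPKM in iTreg cells (adjusted p = 0.0177, limma), from 3.15 ± 1.09 FPKM in Th0 cells of the Th17 table. With at most 1.05 FPKM in Th17 libraries, Ccl5 passed the filter of the Th17 table mainly through Th0 libraries. Ccl3 fell from 35.1 ± 21.2 to 5.54 ± 6.04 FPKM in Th17 cells (adjusted p = 0.0295, limma), and Xcl1, the ligand of XCR1, rose from 16.8 ± 19.9 to 137.9 ± 132 FPKM in iTreg cells (adjusted p = 0.0344, limma). The calls of Ccl3 in Th17 and Xcl1 in iTreg cells were lost with 5 and 6 of the 8 libraries when each was left out in turn, with adjusted p of at most 0.0841 and 0.0886, and that of Ccl5 in iTreg cells without the iTreg library M22 (adjusted p = 0.0551). Under the replicate block 1 ligand rose and 5 fell in Th17 cells, where 37.8% of all tested genes were called.

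Genes of lymph node homing and egress, the machinery that acts beside Ccr7, were mixed. Of 10 tested, 1 rose and 4 fell in Th17 cells (median 0.06), and none rose and 4 fell in iTreg cells (median -0.41). Called genes thus make 50% and 40% of the list, against 19.3% and 16.6% of all tested genes. At an unadjusted p under 0.05, as with limma-voom on whole reads, 0 were higher in iTreg cells. S1pr1, the sphingosine 1-phosphate receptor for exit from lymph nodes, rose from 7.65 ± 3.85 to 42.9 ± 26.7 FPKM in Th17 cells (adjusted p = 0.0275, limma). Cd69, which holds S1PR1 back from the cell surface, fell in Th17 cells from 76.7 ± 12.3 to 40.0 ± 8.82 FPKM (adjusted p = 0.00883, limma) and in iTreg cells from 75.8 ± 12.2 to 44.5 ± 9.79 FPKM (adjusted p = 0.0215, limma). Gpr183, a receptor for oxysterols, fell to 5.04 ± 0.667 FPKM in Th17 and 3.52 ± 1.61 FPKM in iTreg cells, from 15.5 ± 5.31 FPKM in Th0 cells of the Th17 table (adjusted p = 0.00254 and 0.00363, limma). Gpr174 fell to 15.0 ± 1.43 FPKM in Th17 and 9.11 ± 1.22 FPKM in iTreg cells, from 31.5 ± 4.99 FPKM in Th0 cells of the Th17 table (adjusted p = 0.00104 and 0.000153, limma). P2ry10 fell in Th17 cells from 25.6 ± 4.89 to 11.7 ± 4.74 FPKM (adjusted p = 0.0127, limma). The calls of S1pr1 in Th17 and Cd69 in iTreg cells were lost with 6 and 4 of the 8 libraries when each was left out in turn, with adjusted p of at most 0.0732 and 0.0625. Under the replicate block 1 gene rose and 6 fell in iTreg cells, where 40.9% of all tested genes were called.

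Of 10 selectin ligands and enzymes that make them, 3 rose and none fell in Th17 cells (median 0.15), and of 9 tested, 2 rose and none fell in iTreg cells (median 0.12). Such shares, 30% and 22.2%, stand beside 19.3% and 16.6% of all tested genes called. At an unadjusted p under 0.05, as with limma-voom on whole reads, 0 were lower in either condition. In iTreg cells Fut7, the fucosyltransferase that completes selectin ligands, rose from 4.18 ± 1.06 to 17.5 ± 4.11 FPKM (adjusted p = 0.000452, limma), and B4galt1 from 32.3 ± 9.36 to 106.6 ± 16.3 FPKM (adjusted p = 0.00124, limma). In Th17 cells Gcnt1 rose from 0.549 ± 0.403 to 4.66 ± 2.04 FPKM (adjusted p = 0.0012, limma), B4galt1 from 32.6 ± 9.43 to 65.4 ± 12.6 FPKM (adjusted p = 0.0178, limma), and St3gal6 from 2.53 ± 1.23 to 5.16 ± 0.659 FPKM (adjusted p = 0.0368, limma). With at most 1.10 FPKM in Th0 libraries, Gcnt1 passed the filter mainly through Th17 libraries. The call of St3gal6 was lost with 6 of the 8 libraries left out in turn (adjusted p at most 0.0925), and that of B4galt1 in Th17 cells without the Th17 library M22 (adjusted p = 0.0545). With the replicate block, 4 rose and 1 fell in Th17 cells, and 4 rose and 3 fell in iTreg cells. Over all tested genes the block called 37.8% and 40.9%.

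Of 8 homing integrins, 1 rose and 1 fell in Th17 cells (median 0.12), and 1 rose and 2 fell in iTreg cells (median 0.30). Called integrins make 25% and 37.5% of the list, against 19.3% and 16.6% of all tested genes. Itgae, the CD103 chain that binds E-cadherin on epithelium, rose from 0.519 ± 0.356 to 12.9 ± 6.28 FPKM in Th17 cells (adjusted p = 0.000531, limma) and from 0.514 ± 0.353 to 9.53 ± 6.38 FPKM in iTreg cells (adjusted p = 0.00601, limma). Th0 libraries held at most 0.994 FPKM of Itgae in the iTreg table. It thus passed the filter there only through iTreg libraries, and its rise follows from the filter. In the Th17 table, with at most 1.003 FPKM in Th0 libraries, Itgae passed mainly through Th17 libraries. Itga4, whose product pairs with that of Itgb7 for gut homing, fell from 4.24 ± 1.15 to 1.23 ± 0.748 FPKM in Th17 cells (adjusted p = 0.00957, limma) and from 4.19 ± 1.14 to 1.84 ± 0.571 FPKM in iTreg cells (adjusted p = 0.0267, limma). Itgb3 fell from 3.67 ± 1.59 to 0.970 ± 0.756 FPKM in iTreg cells (adjusted p = 0.0374, limma). In iTreg cells the calls of Itga4 and Itgb3 were lost with 4 and 6 of the 8 libraries left out in turn, with adjusted p of at most 0.075 and 0.1. Under the replicate block 3 integrins rose and 3 fell in Th17 cells, and 4 rose and 2 fell in iTreg cells. The block called 37.8% and 40.9% of all tested genes.

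Of 29 tested genes that carry or end chemokine receptor signals, 4 rose and 2 fell in Th17 cells (median 0.01), and 4 rose and 3 fell in iTreg cells (median 0.05). These are 20.7% and 24.1% of the list, where 19.3% and 16.6% of all tested genes were called. Rac2, a GTPase of cell migration, fell from 222.2 ± 8.69 to 123.2 ± 3.37 FPKM in Th17 cells (adjusted p = 0.000237, limma) and from 219.7 ± 8.74 to 135.3 ± 11.2 FPKM in iTreg cells (adjusted p = 0.00139, limma). Grk5, a kinase that desensitizes receptors, fell by 0.83 in Th17 and 1.22 in iTreg cells (adjusted p = 0.0362 and 0.00227, limma). Prex1, a Rac exchange factor, rose by 1.38 in Th17 and 0.98 in iTreg cells (adjusted p = 0.0019 and 0.00771, limma). Arrb1 (arrestin beta 1) and Rgs10, a brake on G protein signals, rose in Th17 cells by 1.06 and 0.83 (adjusted p = 0.00147 and 0.0417, limma). In iTreg cells the G protein subunit Gng2 rose by 1.58 and the kinase subunit Pik3cg by 0.75 (adjusted p = 0.000322 and 0.0167, limma), and Rap1a fell by 0.50 (adjusted p = 0.0463, limma). The calls of Grk5 and Rgs10 in Th17 cells and of Rap1a and Pik3cg in iTreg cells were lost with 5, 6, 7, and 2 of the 8 libraries left out in turn, with adjusted p of at most 0.122. With the replicate block, 7 rose and 6 fell in Th17 cells, and 8 rose and 6 fell in iTreg cells. Of all tested genes, the block called 37.8% and 40.9%.

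**Figure D4:**
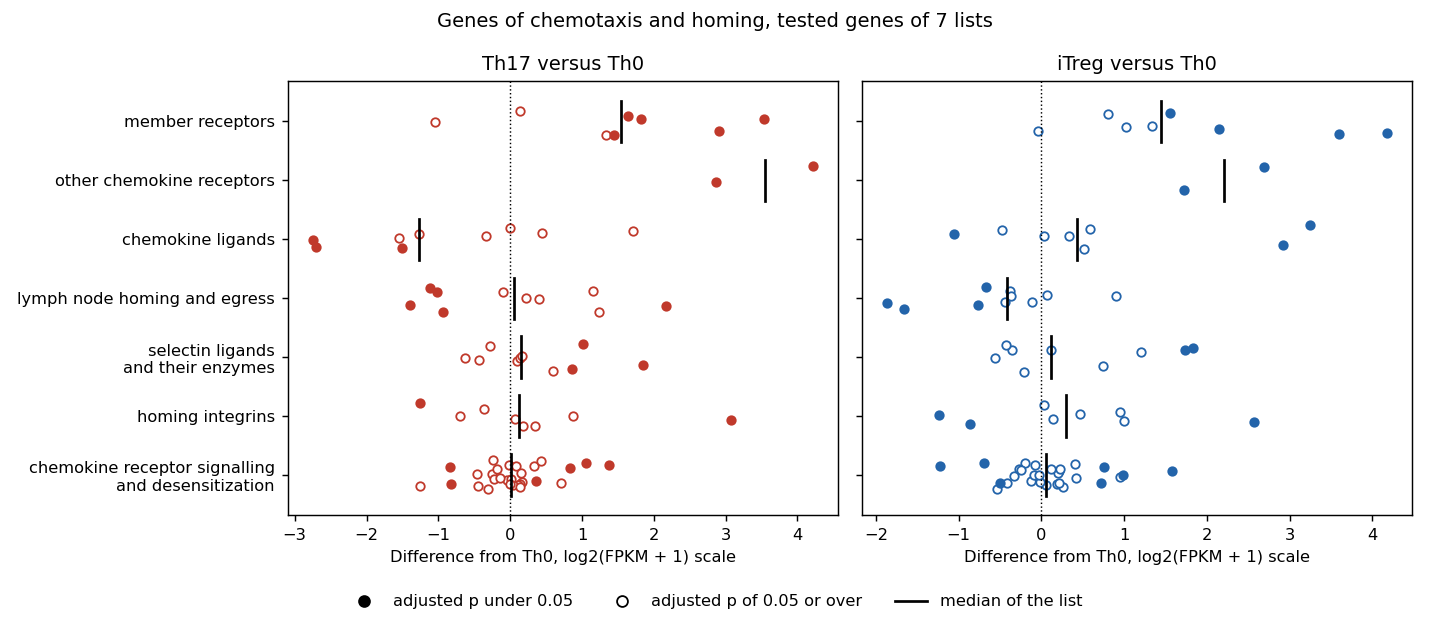
Difference from Th0 cells on the log2(FPKM + 1) scale of each tested gene of 7 lists of chemotaxis and homing, in Th17 (left) and iTreg cells (right). Filled points passed an adjusted p of 0.05 and bars are medians of a list. The 29 signalling genes gather around 0, with medians of 0.01 and 0.05, while the medians of the 8 member receptors are 1.54 and 1.45. Of these receptors, Gpr15, Ccr6, and Cxcr3 passed the filter only or mainly through polarized libraries. All were chosen with earlier results of these data known, so the medians are a description.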

How the data were processed

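RNA-seq of 12 libraries of Th0, Th17, and iTreg cells (4 each, 3 d of culture) was analysed. The authors mapped reads to mm10 with TopHat2 2.0.14, counted them on exons with HTSeq without strand, removed genes that did not exceed 1 CPM in 4 or more samples, tested with edgeR in a design their methods call pair-wise, and deposited 2 tables with FPKM of 8 libraries each, scaled per table; the same Th0 library is 0.886% to 1.21% higher in the Th17 table. The annotation they counted on and the FPKM calculation are not given in the sources used here. Columns with their fold changes, p-values, and FDR were not used, and no other column holds values of a sample. The methods of the study call the cultures independent.

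Genes over 1 FPKM in at least 4 of 8 libraries (10269 of 11077 and 10208 of 11056) entered limma 3.58.1 (R 4.3.3) as log2(FPKM + 1), and fold changes on this scale understate low genes. Exact tests and tallies used Python 3.11.15, numpy 2.4.6, pandas 2.3.3, and scipy 1.17.1. Whole reads were recovered from FPKM steps for 98.0% and 97.8% of genes (within 0.02 of a whole number), and limma-voom on them, an alternative added after seeing the data, called 1948 genes in the Th17 and 1664 in the iTreg comparison, against 1983 and 1691. Library totals are sums of these reads, and read counts cover counting error only.

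The labels number experiments, but headings carry no such number. Libraries with the same heading beginning deviated together from their group means. Their correlations were 0.450 to 0.784 in the Th17 and 0.662 to 0.769 in the iTreg table. For different beginnings they were -0.59 to 0.434 (median -0.318) and -0.576 to 0.248 (median -0.344). Centring on group means pulls the values for different beginnings down where those for the same beginning are positive. Every polarized library correlated most with the Th0 library of its own beginning, so these beginnings pair the libraries as far as the data show. The pairing comes from the headings, not from the labels, and for that reason the main test was unpaired and the block an alternative.

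Members, lists, motifs, and tests were chosen with earlier results of these data known. Named genes are the 8 members, at most 3 raised and 3 lowered DE genes for each list and comparison, and the 3 genes most like each member. Genes given beside them (Cpox, Il17f, Foxp3, Tbx21, Cd4, Cd69 and Ccl20 in Th17, and Ccl1 in iTreg cells) were added after their values were seen, and some genes that this rule names are not reported here. Alternatives were another pseudocount, no filter, limma-trend, median centring, quantile normalization, FDR 0.01, the replicate block, and leaving out libraries. limma was tested on simulated data.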

Additional observations from a re-analysis of the deposited data

Results flagged for a closer look

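A library stood far from the other 3 of its group, by Dixon's test at the 95% level, in 7 of 108 sets of 4 libraries tested, where chance flags about 1 in 20 and a Th0 library that both tables hold is given once. Among the receptors these were Ccr6 in the Th17 library M22, at 9.78 FPKM where the nearest other library had 2.46, and Gpr15 in the Th17 library M29, at 5.23 FPKM where the nearest had 14.7. Among the other genes, Gcnt1 was high in the Th17 library M22 (7.71 FPKM, nearest 3.94), Itga4 low in the Th0 library M42 (2.52 FPKM, nearest 4.75) and in the iTreg library M42 (0.993 FPKM, nearest 2.07), Cd69 low in the Th0 library M42 (57.6 FPKM, nearest 80.7), and Pik3cg high in the Th0 library M42 (7.57 FPKM, nearest 5.83).

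Ccr4 lay below the Th0 mean in every Th17 library and above it in every iTreg library, with log2 differences of -1.05 and 1.02 (adjusted p = 0.0671 and 0.128, limma). Libraries also lay on opposite sides of the Th0 mean for Arrb1 (1.06 in Th17 cells, and -0.25 in iTreg cells with an adjusted p of 0.257, limma), St3gal6 (0.87 in Th17 cells, and -0.36 in iTreg cells with an adjusted p of 0.438, limma), and Gcnt1 (1.84 in Th17 cells, and too low in iTreg cells to pass the filter). These differences between Th17 and iTreg cells were not tested, because the tables were scaled separately.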

How the results depend on the processing

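The 4 receptors called in iTreg cells stayed at 4 under all settings except the replicate block, which gave 7 (7 up), also with limma-voom on whole reads (7, 7 up). In Th17 cells, where 5 were called (5 up, 0 down), the replicate block gave 7 with 1 down, with or without whole reads (1 down), a pseudocount of 0.1 gave 6 with Ccr6 added, an FDR of 0.01 left 3 (3 up), and median centring, quantile normalization, and leaving out both M42 libraries each called Ccr4 as 1 down. Leaving out 1 library gave 3 to 6 receptors (3 to 6 up, 0 to 1 down) in Th17 cells, with 3 without the Th0 or Th17 library M29 and 3 up with 1 down without the Th0 library M42, and 4 throughout in iTreg cells. Over all genes the replicate block gave 3882 DE genes in Th17 and 4170 in iTreg cells, against 1983 and 1691 without it, and an FDR of 0.01 left 995 in Th17 cells. The block is on heading beginnings and changed no receptor call beyond those of Ccr4 (both comparisons), Ccr6 (Th17), Cxcr3, and Cxcr4 (iTreg). Ccr7 changed sign with single libraries left out, between -0.24 and 0.53 in Th17 and -0.42 and 0.26 in iTreg cells. Of the other named genes, Ccl3, S1pr1, St3gal6, B4galt1, Grk5, and Rgs10 in Th17 and Ccl5, Xcl1, Cd69, Itga4, Itgb3, Pik3cg, and Rap1a in iTreg cells lost their call when at least 1 library was left out. Without both M42 libraries, 4 integrins in Th17 and 5 in iTreg cells, and 3 signalling genes in Th17 cells were called, and no chemokine ligand was called in iTreg cells. Over all genes this setting called 1683 in Th17 and 1042 in iTreg cells. Leaving out both M42 libraries and using whole reads were chosen after seeing the data. For Gpr15, Cxcr3, and Ccr6 in Th0 cells, 5, 41, and 52 reads in all limit the size of the fold changes.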
